A study of Mus musculus with 10 samples.

Results

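Fast- and slow-twitch skeletal muscles differ in the transcription factors that hold fiber identity, and 9 genes known for this role were followed here across 3 mouse muscles. The genes were Six4, Eya1, Eya4, Sox6, Tbx15, Prox1, Tead1, Nfix, and Vgll2, chosen by name for their known role and found by Ensembl identifier in the GRCm38 annotation. All 9 were among the 16112 genes counted. Total RNA, depleted of ribosomal and globin transcripts, was sequenced from whole extensor digitorum longus (EDL, 3 libraries), psoas (3 libraries), and soleus (4 libraries). All mice carried the genotype Wild type in the strain B6C3Fe a/a-Ttnmdm/J, a colony named for the nonagouti allele and for mdm, an allele of the titin gene Ttn, and no treatment was given. The EDL mice were 42, 54, and 44 days old (replicates 1 to 3), the psoas mice 42, 54, and 44 days, and the soleus mice 42, 44, 32, and 44 days. EDL and psoas are classed as fast-twitch muscles, and soleus holds a large part of slow fibers.

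Homeodomain proteins of the sine oculis family, such as Six4, bind DNA at MEF3 sites of muscle gene promoters, and EYA proteins bind them and act as their coactivators. Together they are known for turning on genes of the fast glycolytic program. Sox6 represses slow fiber genes in fast fibers, Tbx15 is a T-box factor of glycolytic fibers, and Prox1 is a homeobox factor needed for the slow program. TEAD proteins bind the MCAT element of contractile genes, with vestigial-like proteins such as Vgll2 as cofactors, and Nfix is known for the switch of muscle genes between embryonic and fetal myogenesis.

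Total counts ranged from 12737971 to 50431713 per library, and 3 counts, the upper limit that a count of 0 allows, corresponded to between 0.0595 and 0.236 CPM (counts scaled to the total of the library). This limit covers counting error only. Defining genes of skeletal muscle fibers were present in every library, and no gene of that list was at 0. Their summed level was 17017 to 31369 normalized CPM in EDL, 32807 to 43125 in psoas, and 31057 to 32417 in soleus. Reads of replicates 1 and 2 of EDL and of psoas had been quality-trimmed by the authors, and no soleus reads had. The 4 libraries of 44-day mice were from females. Of the others, 5 were from males, among them all trimmed libraries and soleus 1, and soleus 3 had no sex given. The labels hold 7 animal codes, 3 of which gave 2 libraries each from different muscles, while the study's methods state fewer mice than there are codes. Libraries with different codes may therefore share a mouse. The labels number the libraries of each muscle as replicates, and p-values measure the spread between these libraries.

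The 9 genes were compared between muscles to ask whether regulators of fiber type follow the split between fast and slow muscle. A gene was called where edgeR's quasi-likelihood test gave a Benjamini-Hochberg adjusted p under 0.01, over all 16112 genes, and the fold change was over 2. In soleus vs EDL, 4 of the 9 genes were called, beside 5.77% of all genes tested: Prox1, Tead1, and Vgll2 rose, as did 3.59% of all genes, and Eya4 fell, as did 2.18%. In soleus vs psoas, 3 of 9 were called, beside 5.69% of all genes: Prox1 rose, as did 2.99% of all genes, and Eya4 and Sox6 fell, as did 2.71%. In psoas vs EDL, between the fast muscles, 2 of 9 were called, beside 2.11% of all genes: Tead1 and Vgll2 rose, as did 0.54% of all genes, and no member fell, while 1.57% of all genes did. At an adjusted p under 0.05 with no fold threshold, edgeR passed 6 members in soleus vs EDL (18.6% of all genes), 5 in soleus vs psoas (14.5%), and 3 in psoas vs EDL (11.1%). The comparisons share libraries, so their calls are not separate evidence. The psoas vs EDL calls were lost in several fits on fewer libraries. In edgeR, 0 of 9 passed without EDL 1, EDL 2, psoas 1, or psoas 3, and 0 when soleus was left out of the fit or with the replicate number as a block, while DESeq2 and limma-voom on all libraries called both genes. The share of all genes called in these fits is not given here, so a loss particular to the members cannot be read from them. Leaving out each library in turn, the log2 fold change stayed between 1.52 and 1.92 for Tead1 and between 1.24 and 1.55 for Vgll2. Against the mean of EDL and psoas, 5 members were called in soleus, beside 5.86% of all genes. Prox1, Tead1, and Vgll2 rose (3.62% of all genes) and Eya4 and Sox6 fell (2.24%), and 7 passed at an adjusted p under 0.05 (16.9%). With a covariate built from read trimming and age (the run proxy) only Prox1 was left, and the share of all genes in that fit is not given here either.

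**Figure D1:**
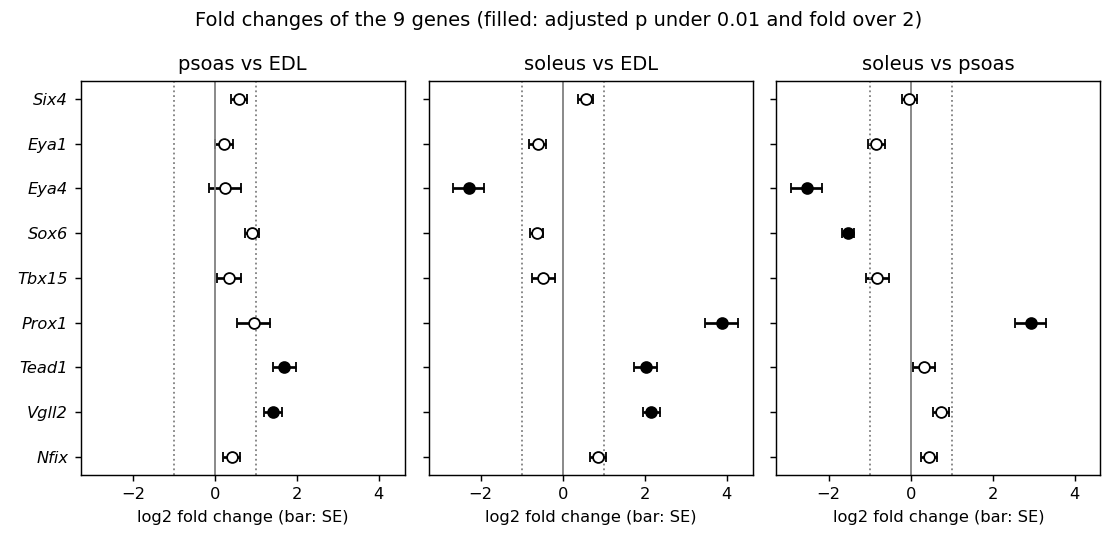
Log2 fold change of each gene in the 3 comparisons, with SE bars from edgeR. Filled points passed both thresholds and dotted lines mark a fold of 2. Prox1 lies farthest to the right in both soleus comparisons (3.87 and 2.93), Eya4 farthest to the left (−2.29 and −2.54), and Tead1 and Vgll2 are the filled points in psoas vs EDL.

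Separation of the libraries was also read directly from the values. All psoas libraries lay above all EDL libraries for 5 of the 9 genes (Six4, Sox6, Tead1, Vgll2, and Nfix), beside 13.4% of all genes, and below them for 0 of 9, beside 16.3%. All soleus libraries lay above all EDL libraries for 4 genes (Prox1, Tead1, Vgll2, and Nfix), beside 15.2% of all genes, and below them for Eya4 and Sox6, beside 14.3%. Against psoas, soleus lay above for Prox1 and Vgll2, beside 13.9%, and below for Eya1, Eya4, Sox6, and Tbx15, beside 11.9%. The median log2 fold change of the 9 genes was 0.59 in psoas vs EDL, beside 0.01 over all genes. For the list of 6 skeletal muscle fiber genes it was 0.74. Of these 6, 4 had all psoas libraries above all EDL libraries and 0 had them below. A shift particular to the 9 genes can therefore not be read from these values. The plot of values by library shows the patterns of the 9 genes.

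**Figure D2:**
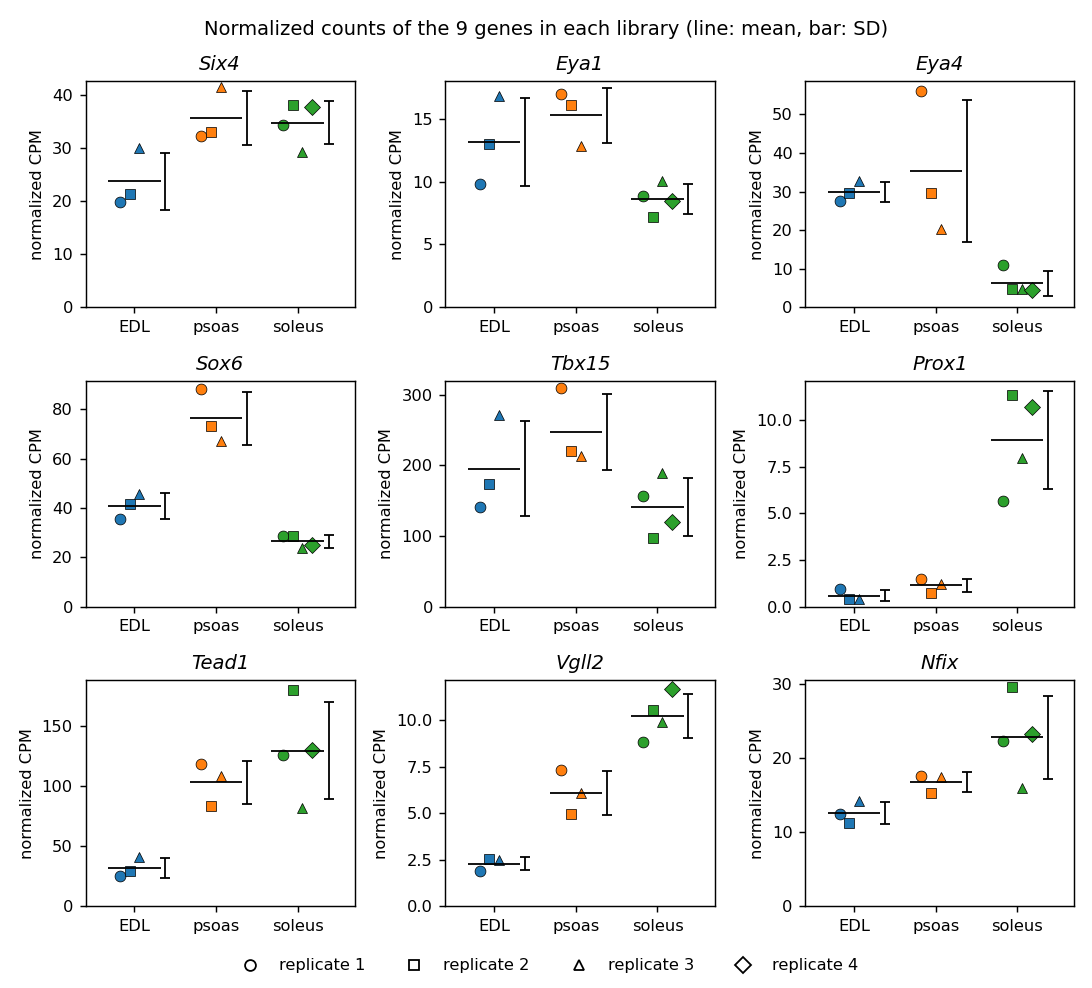
Normalized CPM of each gene (y axes from 0) in each library, grouped by muscle, with the mean as a line and the SD as a bar, and 1 marker shape per replicate number. Soleus libraries stand above the others for Prox1 (5.68 to 11.4), below them for Eya4 (4.38 to 10.9) and Sox6 (23.6 to 28.7), and EDL libraries stand lowest for Tead1 (25.1 to 41.4) and Vgll2 (1.89 to 2.53).

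Six4, a sine oculis homeodomain factor of the fast program, did not separate the fast muscles from soleus. It was at 19.9, 21.4, and 30.0 normalized CPM in EDL 1 to 3, at 32.4, 33.2, and 41.6 in psoas 1 to 3, and at 34.3, 38.1, 29.3, and 37.8 in soleus 1 to 4. The 3 psoas libraries were above all EDL libraries, and soleus overlapped both. None of its comparisons was called: the log2 fold change was 0.59 in psoas vs EDL (SE 0.19, edgeR adjusted p = 0.0714), 0.56 in soleus vs EDL (SE 0.18, edgeR adjusted p = 0.0525), and −0.03 in soleus vs psoas (SE 0.18, edgeR adjusted p = 0.936).

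The Six4 gene lies at chr12:73099609-73113456 (GRCm38, minus strand), and its promoter windows are shown because 1 of them holds the core of a MEF3 site. Six4 has 2 promoter windows in the RefSeq table (GRCm38.p6, from 250 bases before to 50 after a start). The first, chr12:73113196-73113495 on the minus strand, holds AACCTGA, which is TCAGGTT on the other strand, in capitals.
Six4: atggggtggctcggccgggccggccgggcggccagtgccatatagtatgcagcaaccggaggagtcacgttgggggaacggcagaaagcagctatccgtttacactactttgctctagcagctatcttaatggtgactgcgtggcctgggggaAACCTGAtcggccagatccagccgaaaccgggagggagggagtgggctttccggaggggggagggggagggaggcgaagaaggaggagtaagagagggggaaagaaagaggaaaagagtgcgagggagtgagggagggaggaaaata
TCAGGTT was found on either strand in 4.07% of the 32851 mouse promoter windows of the table. The match starts 97 bases before the start site and is a description of the letters.

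Eya4, a coactivator of Six4 and its relatives, was low in soleus. Its levels were 27.6, 29.5, and 32.7 normalized CPM in EDL 1 to 3, 56.0, 29.7, and 20.3 in psoas 1 to 3, and 10.9, 4.67, 4.70, and 4.38 in soleus 1 to 4. All soleus libraries lay below all libraries of the other muscles, psoas libraries were spread widely, and soleus 1 stood above the other soleus libraries. Eya4 fell 4.90-fold in soleus vs EDL (log2 −2.29, SE 0.37, edgeR adjusted p = 0.00225) and 5.80-fold in soleus vs psoas (log2 −2.54, SE 0.38, edgeR adjusted p = 0.00126). In bulk tissue, fewer fibers that express a gene and less of its RNA in each fiber cannot be told apart. With read trimming as a covariate, neither call was kept (edgeR adjusted p = 0.0160 against EDL and 0.0129 against psoas, the highest of 21 alternatives each), and with the run proxy the call against EDL was lost too. Among the untrimmed libraries alone, soleus stood below EDL 3 by a log2 difference of −2.41 and below psoas 3 by −1.72.

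Soleus 1, the library with the highest Eya4 of that muscle, also had the lowest Prox1 and the lowest Vgll2 of the 4 soleus libraries. The summed level of 16 fast fiber genes was 44636 normalized CPM in soleus 1 and 24506 to 36320 in the other soleus libraries, and the sum of 14 slow fiber genes was 29116 against 37712 to 40073. Soleus 1 was also the only soleus library known to come from a male. The parts of fiber content and of sex in these values were not tested.

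Eya1, another coactivator of that family, had its lowest mean in soleus. Its levels were 9.78, 12.98, and 16.8 normalized CPM in EDL 1 to 3, 17.0, 16.1, and 12.8 in psoas 1 to 3, and 8.83, 7.15, 10.05, and 8.45 in soleus 1 to 4. Soleus lay below every psoas library and overlapped EDL through EDL 1. The log2 fold change was −0.61 in soleus vs EDL (SE 0.20, edgeR adjusted p = 0.0529) and −0.84 in soleus vs psoas (SE 0.20, edgeR adjusted p = 0.0171), and neither passed the thresholds. Between psoas and EDL, Eya1 and Eya4 differed in direction between trimmed and untrimmed libraries. The trimmed ones were from males and the untrimmed ones of these muscles from 44-day females, so trimming, sex, and age cannot be told apart. Among trimmed libraries, the psoas mean was above the EDL mean by 0.54 (Eya1) and 0.58 (Eya4) on the log2 scale, and among untrimmed libraries it was below by −0.39 and −0.69, with 1 library per muscle.

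The balance of the EYA family differed between muscles, as the plot of family composition shows. Per kilobase of exon, Eya4 held 56.3%, 52.9%, and 52.6% of the EYA family in EDL 1 to 3, 62.7%, 53.9%, and 45.0% in psoas 1 to 3, and 35.5%, 18.1%, 16.9%, and 18.5% in soleus 1 to 4. No soleus library reached the share of any other library. The difference was −31.6 percentage points against EDL (exact two-sided permutation p = 0.0571, the smallest that 4 against 3 libraries allow, adjusted p = 0.129 over 18 tests). Eya1 held 28.2% ± 4.26 in EDL (SD, n = 3), 30.9% ± 6.86 in psoas (SD, n = 3), and 38.7% ± 5.32 in soleus (SD, n = 4), and Eya3, a broadly expressed relative, held 11.9%, 13.7%, and 31.4%. The level of Eya3 itself was 3.35 to 4.52 normalized CPM in EDL, 3.23 to 6.81 in psoas, and 4.33 to 5.62 in soleus, ranges that overlap.

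**Figure D3:**
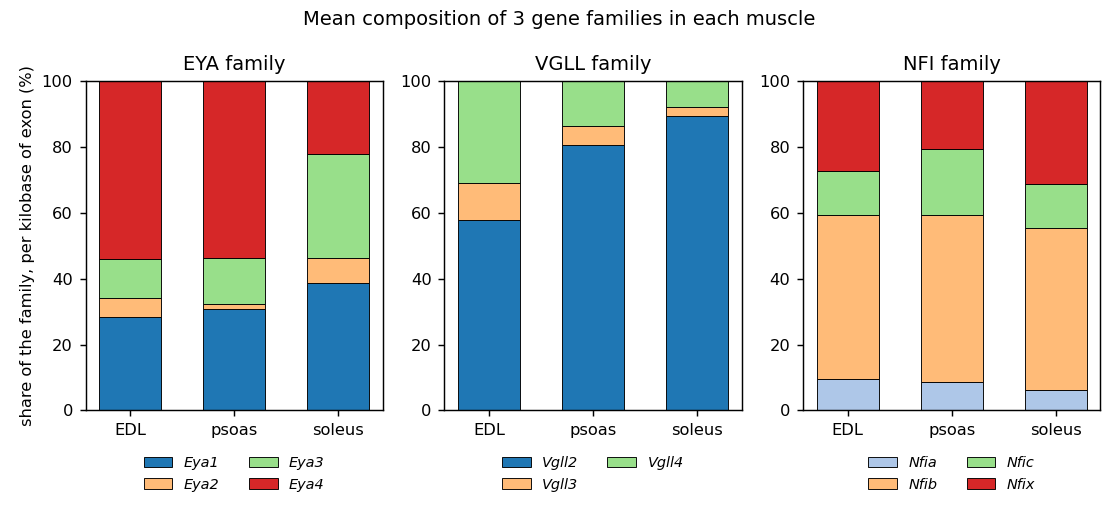
Mean share (y axis, in percent of counts per kilobase of exon) of each gene in the EYA, VGLL, and NFI families by muscle, with stacked bars from 0 to 100. Eya4 takes 53.9% of the EYA family in EDL and in psoas and 22.3% in soleus, and Vgll2 takes 58.0%, 80.5%, and 89.3% of its family.

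Sox6, the repressor of slow fiber genes, was highest in psoas and lowest in soleus. It was at 35.3, 41.8, and 45.8 normalized CPM in EDL 1 to 3, at 88.3, 73.3, and 67.1 in psoas 1 to 3, and at 28.7, 28.6, 23.6, and 24.8 in soleus 1 to 4. The 3 muscles did not overlap in any pair. Sox6 fell 2.88-fold in soleus vs psoas (log2 −1.53, SE 0.16, edgeR adjusted p = 0.000162), and this call was kept in all 21 alternatives. Against EDL, the log2 fold change of soleus was −0.63 (SE 0.16, edgeR adjusted p = 0.0176). In psoas vs EDL it was 0.90 (SE 0.17, edgeR adjusted p = 0.00951), a fold of 1.86, so that both stayed outside the thresholds. EDL thus lay between psoas and soleus in every library. Sox6 held over 88% of the counts per kilobase of Sox5, Sox6, and Sox13 in every library, with 93.1% ± 2.03 in EDL (SD, n = 3), 96.4% ± 1.85 in psoas (SD, n = 3), and 91.4% ± 2.99 in soleus (SD, n = 4).

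Sox6 messages are known targets of miR-499 and miR-208b, 2 microRNAs that lie inside slow myosin genes. They are shown, with their matches, because the host genes were measured here and the microRNAs were not. This search was added after the values were seen. mmu-miR-499-5p (chr2:155622893-155622913, plus strand) lies in Myh7b and mmu-miR-208b-3p (chr14:54975710-54975731, minus strand) in Myh7. Their mature sequences from the RefSeq table (GRCm38.p6) carry the seed, bases 2 to 8, in capitals, and differ in its last base.
mmu-miR-499-5p: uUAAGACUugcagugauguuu
mmu-miR-208b-3p: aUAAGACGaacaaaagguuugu
Myh7b was at 2.14 to 3.88 normalized CPM in EDL, 0.507 to 1.84 in psoas, and 12.2 to 21.7 in soleus, and rose in soleus vs EDL (log2 2.62, SE 0.35, edgeR adjusted p = 0.000711) and vs psoas (log2 4.08, SE 0.40, edgeR adjusted p = 0.000142). Myh7, the slow myosin heavy chain, had means of 51.5, 6.13, and 9824 normalized CPM in EDL, psoas, and soleus. The means of both hosts were lowest in psoas and highest in soleus, but the Myh7 libraries of EDL (7.54 to 117) and psoas (3.19 to 9.95) overlapped. In psoas vs EDL, edgeR called neither host (edgeR adjusted p = 0.0342 for Myh7 and 0.0362 for Myh7b), while DESeq2 called both. Whether these microRNAs act on Sox6 in these muscles was not tested.

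The longest annotated 3′ UTR of Sox6 (6046 bases, GENCODE M21, GRCm38) holds 8 matches to the 6 seed bases that both microRNAs share (GTCTTA). In 3 of them the match to miR-499 has 7 bases, and in 1 the match to miR-208b does. These 4 sites are shown 5′ to 3′ on the minus strand with the match in capitals. The first is that of miR-208b, and the stretch shown for it overlaps the next stretch, while the matches themselves share no bases.
Sox6 chr7:115476633-115476655: ctctgcccatcgcCGTCTTAtga
Sox6 chr7:115476624-115476646: tcgccgtcttatgAGTCTTAcat
Sox6 chr7:115476311-115476333: taactattttaaaAGTCTTAcag
Sox6 chr7:115476289-115476311: ggagacactgcaaAGTCTTAgac
The 7-base match to miR-499 (AGTCTTA) was found in 9.47% of 21005 mouse 3′ UTRs, and 31 of these (0.148%) held at least 3. Among the 435 UTRs at least as long as that of Sox6, 52.4% held it and 19 (4.37%) held at least 3. In the other members, the 6-base match was found 2 times in Eya4, once each in Six4 and Tead1, and not in the longest 3′ UTR of Eya1, Tbx15, Prox1, Nfix, or Vgll2. A match is a description of the letters and not a test of binding.

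The Sox6 gene spans chr7:115470872-116038796 (GRCm38, minus strand), with 6 promoter windows in the RefSeq table. The window at chr7:115824661-115824960 is shown because it holds motifs of 3 of the factor families described here, in capitals: the SOX motif AACAAT in both directions (ATTGTT), the MEF3 core TCAGGTT, and the NFI motif TTGGC as GCCAA.
Sox6: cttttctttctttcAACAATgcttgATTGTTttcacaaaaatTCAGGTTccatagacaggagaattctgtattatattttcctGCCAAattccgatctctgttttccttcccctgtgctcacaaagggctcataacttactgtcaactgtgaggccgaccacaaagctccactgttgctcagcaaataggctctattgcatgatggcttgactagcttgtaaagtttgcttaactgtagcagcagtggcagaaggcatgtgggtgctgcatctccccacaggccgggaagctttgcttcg
AACAAT stands in 10.7% of all promoter windows of the table and TTGGC in 46.7%. Which of the Sox6 starts is used in these muscles cannot be read from counts per gene.

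Tbx15, the T-box factor of glycolytic fibers, was the most abundant of the 9 genes per length in every muscle. Its levels were 142, 174, and 271 normalized CPM in EDL 1 to 3, 309.5, 220.2, and 213 in psoas 1 to 3, and 157, 97.0, 189, and 119.9 in soleus 1 to 4. Soleus lay below all psoas libraries and overlapped EDL. No comparison was called: the log2 fold change was −0.81 in soleus vs psoas (SE 0.28, edgeR adjusted p = 0.0736), −0.47 in soleus vs EDL (SE 0.28, edgeR adjusted p = 0.248), and 0.34 in psoas vs EDL (SE 0.30, edgeR adjusted p = 0.486). Among trimmed libraries the psoas mean was above the EDL mean by 0.75 on the log2 scale. The untrimmed psoas library was below the untrimmed EDL library by −0.35. Sex and age differed together with trimming here too and cannot be told apart from it. In soleus, the library with the least Tbx15 (soleus 2) still had 24.9 FPKM, above the highest value of any other member, 12.8 FPKM of Tead1.

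Prox1, the homeobox factor of the slow program, showed the largest difference among the members. It was counted 40, 22, and 8 times in EDL 1 to 3 and 83, 380, 100, and 203 times in soleus 1 to 4. In normalized CPM it was at 0.934, 0.415, and 0.439 in EDL 1 to 3, at 1.48, 0.761, and 1.20 in psoas 1 to 3, and at 5.68, 11.4, 7.97, and 10.7 in soleus 1 to 4. All soleus libraries stood above all others, and EDL and psoas overlapped. Prox1 rose 14.7-fold in soleus vs EDL (log2 3.87, SE 0.40, edgeR adjusted p = 0.000146) and 7.62-fold in soleus vs psoas (log2 2.93, SE 0.38, edgeR adjusted p = 0.00058). Both calls were kept in all 21 alternatives, with log2 values from 3.63 to 4.35 and from 2.73 to 3.38. In psoas vs EDL, the log2 fold change was 0.94 (SE 0.41, edgeR adjusted p = 0.149).

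Prox1 is also a defining gene of lymphatic endothelium, and the markers of that cell type were read beside it. The summed level of 6 such genes (Lyve1, Flt4, Pdpn, Ccl21a, Mmrn1, and Reln) was 13.5 to 23.7 normalized CPM in EDL, 12.2 to 23.8 in psoas, and 23.2 to 39.8 in soleus, and no marker was at 0 in all libraries of a muscle. In soleus vs EDL 2 of the 6 rose (Ccl21a and Mmrn1), beside 3.59% of all genes, and limma-voom called only Mmrn1. In soleus vs psoas edgeR and limma-voom called 0 of 6, beside 5.69% of all genes in edgeR. There, 2 were at an unadjusted p under 0.05 in edgeR, and DESeq2 called 1 (Reln). The median log2 fold change of the 6 was 0.96 in soleus vs EDL, beside 3.87 for Prox1, and 0.55 in soleus vs psoas, beside 2.93. The part of lymphatic vessels in the Prox1 values was not tested.

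The summed levels of satellite cell markers and of adipocyte markers also had their highest means in soleus. The sum of 5 satellite cell genes was 31.8 to 37.7 normalized CPM in EDL, 26.0 to 32.9 in psoas, and 54.4 to 74.5 in soleus, without overlap of soleus with the others. Sdc4, a surface proteoglycan, made up most of this sum, with means of 26.3, 23.9, and 59.5 normalized CPM in EDL, psoas, and soleus. The means of the sum were 34.8, 30.3, and 67.2. Sdc4 rose 2.27-fold against EDL and 2.49-fold against psoas (edgeR adjusted p = 0.00349 and 0.00189). Pax7, the defining factor of satellite cells, did not pass (log2 1.05 and 1.09). Of the 5 genes, Vcam1 alone was lower in soleus than in EDL (log2 −0.68). Its levels were 2.71 to 5.54 normalized CPM in soleus and 5.79 to 9.18 in EDL, without overlap. Its psoas range, 2.34 to 6.04, overlapped that of soleus. The sum of 5 adipocyte genes was 8.55 to 25.6 normalized CPM in EDL, 8.85 to 46.6 in psoas, and 31.5 to 142 in soleus. In edgeR 0 of these 5 were called against either muscle, beside 5.77% of all genes against EDL and 5.69% against psoas. All 5 were at an unadjusted p under 0.05 in each of the 2 edgeR comparisons. DESeq2 called Plin1 against EDL and Lep and Plin1 against psoas, and limma-voom called 0. The part of these cell types in the soleus values of the members was not tested.

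The ratios of Prox1 to factors of the fast program separated soleus from the other muscles. On the log2 scale of counts per kilobase, Prox1 to Sox6 ran from −5.88 to −4.42 in EDL, from −5.77 to −4.98 in psoas, and from −1.52 to −0.39 in soleus. Sox6 thus exceeded Prox1 21.4- to 58.9-fold in EDL, 31.5- to 54.5-fold in psoas, and 1.31- to 2.86-fold in soleus, and remained above it in all 10 libraries. Prox1 to Tbx15 was −9.57 ± 1.05 in EDL (SD, n = 3), −8.95 ± 0.36 in psoas (SD, n = 3), and −5.15 ± 0.82 in soleus (SD, n = 4). Eya1 to Eya4 was between −1.45 and −0.39 in all EDL and psoas libraries and between −0.03 and 1.37 in soleus, with soleus 1 the only soleus library below 0. Both genes of each ratio were chosen as members, so the ratios are descriptions.

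**Figure D4:**
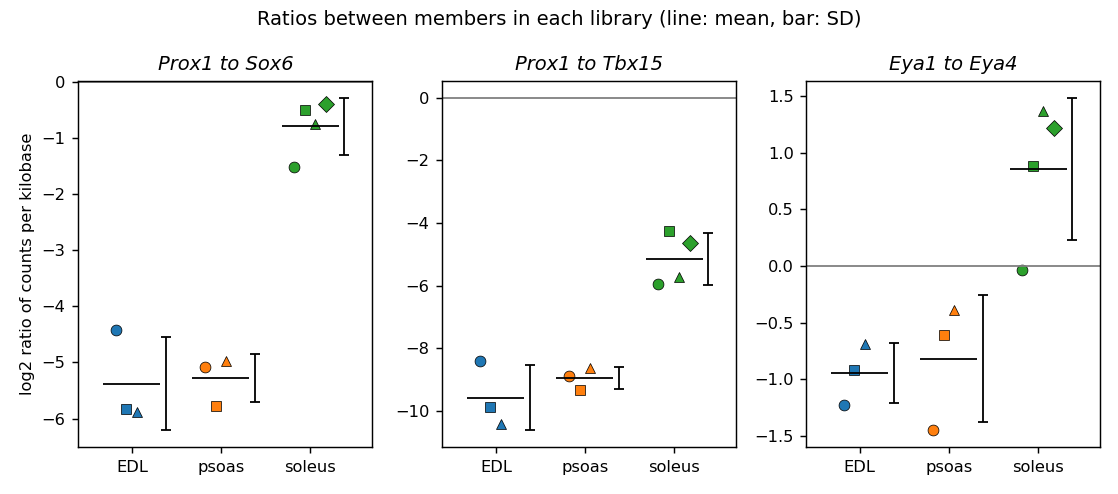
Log2 ratio of counts per kilobase (y axes) for 3 pairs of members in each library by muscle, with means as lines, SDs as bars, and marker shapes for replicate numbers as in the plot of values by library (circle, square, triangle, and diamond for 1 to 4). The soleus points for Prox1 to Sox6 (−1.52 to −0.39) lie above those of EDL and psoas (−5.88 to −4.42), and those for Eya1 to Eya4 reach 1.37.

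Tead1, which binds MCAT elements, separated EDL from both other muscles. Its levels were 25.1, 29.5, and 41.4 normalized CPM in EDL 1 to 3, 119, 83.7, and 108 in psoas 1 to 3, and 126, 181, 81.9, and 130.1 in soleus 1 to 4. Every EDL library lay below every other library, and soleus 3 lay below every psoas library while the other soleus libraries lay above them. Tead1 rose 4.06-fold in soleus vs EDL (log2 2.02, SE 0.28, edgeR adjusted p = 0.000848), a call kept in all 21 alternatives, and 3.24-fold in psoas vs EDL (log2 1.69, SE 0.29, edgeR adjusted p = 0.00645), a call kept in 12 of 21 (edgeR, DESeq2, or limma adjusted p up to 0.0345). In soleus vs psoas the log2 fold change was 0.33 (SE 0.26, edgeR adjusted p = 0.462). In the untrimmed libraries of 44-day females, the psoas library exceeded that of EDL by 1.39 on the log2 scale, and in the trimmed libraries, psoas exceeded EDL by 1.89.

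Vgll2, a cofactor of TEAD proteins that is largely confined to skeletal muscle, was lowest in EDL and highest in soleus. It was at 1.89, 2.53, and 2.47 normalized CPM in EDL 1 to 3, at 7.31, 4.95, and 6.09 in psoas 1 to 3, and at 8.83, 10.6, 9.89, and 11.7 in soleus 1 to 4. The 3 muscles did not overlap. Vgll2 rose 4.47-fold in soleus vs EDL (log2 2.16, SE 0.21, edgeR adjusted p = 0.000123), a call kept in all 21 alternatives, and 2.68-fold in psoas vs EDL (log2 1.42, SE 0.22, edgeR adjusted p = 0.00416), a call kept in 15 of 21 (adjusted p up to 0.0247). The step from psoas to soleus was 0.74 (SE 0.20, edgeR adjusted p = 0.0305), under a fold of 2.

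Other markers moved with the low EDL values of Tead1 and Vgll2. The summed level of 9 tendon and fibroblast genes was 2137 to 3638 normalized CPM in EDL, 603 to 903 in psoas, and 620 to 1393 in soleus. In psoas vs EDL 5 of the 9 fell, beside 1.57% of all genes. The sum of 5 macrophage genes was 68.3 to 156 in EDL, 25.3 to 53.3 in psoas, and 52.0 to 78.7 in soleus, and 1 of the 5 (Mrc1) fell in psoas vs EDL, beside the same 1.57%. The summed skeletal fiber genes given above were lower in every EDL library than in every psoas library. Six4, Sox6, and Nfix were also lower in every EDL library than in every psoas library. The part of tendon, connective tissue, and macrophages in the values of these genes, of Tead1, and of Vgll2 was not tested.

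Per kilobase of exon, the cofactor and the DNA-binding protein were each the leading gene of their family. Tead1 held 89.9% ± 2.63 of the counts per kilobase of the 4 TEAD genes in EDL (SD, n = 3), 94.2% ± 1.54 in psoas (SD, n = 3), and 95.1% ± 0.37 in soleus (SD, n = 4). Vgll2 held 52.7%, 64.4%, and 56.8% of the 3 VGLL genes counted (Vgll2, Vgll3, and Vgll4) in EDL 1 to 3, 80.8%, 82.3%, and 78.4% in psoas 1 to 3, and 87.9%, 89.4%, 91.1%, and 88.8% in soleus 1 to 4. The muscles did not overlap in the share of Vgll2. Its difference was 31.4 percentage points in soleus vs EDL (exact two-sided permutation p = 0.0571, adjusted p = 0.129), 22.6 in psoas vs EDL (exact two-sided permutation p = 0.1, the smallest that 3 against 3 libraries allow, adjusted p = 0.18), and 8.80 in soleus vs psoas (exact two-sided permutation p = 0.0571, adjusted p = 0.129). Vgll4, the second gene of the family per kilobase, had means of 4.00, 3.45, and 2.96 normalized CPM in EDL, psoas, and soleus. Without division by length, its mean in EDL was above that of Vgll2 (2.30 normalized CPM). The coactivators Yap1 and Wwtr1, which share TEAD proteins with Vgll2, were not called by edgeR in any comparison, with log2 fold changes of 0.62 and 0.22 in soleus vs EDL. All soleus libraries lay above all psoas libraries for both, beside 13.9% of all genes. Yap1 was at 32.8 to 55.8 normalized CPM in soleus, 25.6 to 32.3 in psoas, and 23.9 to 39.9 in EDL. Wwtr1 was at 52.2 to 75.7 in soleus, 35.4 to 44.6 in psoas, and 48.8 to 60.5 in EDL, where it too lay above psoas.

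The Vgll2 gene lies at chr10:52022502-52028471 (GRCm38, plus strand). Its promoter window, chr10:52022252-52022551 on the plus strand, is shown because the means of Vgll2 and Tead1 had the same order of muscles, and it was searched for the TEAD motif CATTCC on both strands. No match was found in these letters.
Vgll2: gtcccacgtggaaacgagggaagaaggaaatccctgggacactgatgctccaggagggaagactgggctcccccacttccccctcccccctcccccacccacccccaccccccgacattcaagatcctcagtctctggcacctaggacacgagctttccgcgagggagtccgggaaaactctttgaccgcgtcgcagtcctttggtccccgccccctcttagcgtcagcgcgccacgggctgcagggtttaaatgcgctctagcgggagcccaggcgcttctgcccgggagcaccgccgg
CATTCC stands in 14.7% of all promoter windows. Of the 17 windows of 6 members (Six4, Eya4, Sox6, Prox1, Nfix, and Vgll2), 2 held it, both of Sox6, 2 held the MEF3 core, 1 held the SOX motif, and 6 held the NFI motif. The E-box CANNTG was found in 12 of the 17 (5 of the 6 members), beside 72.3% of all windows. The T-box core AGGTGT was found in 2, beside 13.7%, where it can overlap an E-box. The windows of Six4 overlap, as do those of Eya4, and several are of Sox6, so the 17 windows are not separate. Eya1, Tbx15, and Tead1 had no window in the table.

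Nfix, an NFI factor, passed the thresholds in no comparison. Its levels were 12.4, 11.2, and 14.2 normalized CPM in EDL 1 to 3, 17.6, 15.2, and 17.4 in psoas 1 to 3, and 22.3, 29.5, 15.9, and 23.2 in soleus 1 to 4. EDL lay below all other libraries, and soleus 3 was within the psoas range. The log2 fold change was 0.86 in soleus vs EDL (SE 0.20, edgeR adjusted p = 0.0127), 0.41 in psoas vs EDL (SE 0.21, edgeR adjusted p = 0.21), and 0.45 in soleus vs psoas (SE 0.20, edgeR adjusted p = 0.159). Nfib, a close relative, was the highest NFI gene per length, with 49.8%, 50.5%, and 49.1% of the family in EDL, psoas, and soleus. Nfix held 27.3% ± 0.87 in EDL (SD, n = 3), 20.7% ± 3.51 in psoas (SD, n = 3), and 31.3% ± 1.79 in soleus (SD, n = 4), without overlap between muscles. The share of Nfix was 10.6 percentage points higher in soleus than in psoas (exact two-sided permutation p = 0.0571, adjusted p = 0.129).

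Levels of different genes were compared per length, in FPKM (fragments per kilobase of exon, scaled to library size). Tbx15 led in each muscle, with means of 51.6, 66.3, and 37.1 FPKM in EDL, psoas, and soleus, at the 96.6, 96.9, and 95.1 percentile of all genes, and its range met no other member. Below it the order changed. In EDL, Eya4 (3.15), Sox6 (2.73), Tead1 (2.34), Six4 (2.17), Nfix (1.70), Eya1 (1.67), and Vgll2 (1.38) followed with each range overlapping the next, and Prox1 was last at 0.0702 FPKM. In psoas, Tead1 (7.65) stood clear of Sox6 (5.16), after which Eya4 (3.77), Vgll2 (3.72), and Six4 (3.29) overlapped their neighbours, Nfix (2.28) and Eya1 (1.97) overlapped each other, and Prox1 was last at 0.137. In soleus, Tead1 (9.35) and Vgll2 (6.09) overlapped, Six4 (3.16) and Nfix (3.03) overlapped, Sox6 (1.75) stood clear of its neighbours, and Eya1 (1.09), Prox1 (1.04), and Eya4 (0.644) overlapped in turn. Eya4 was second of the 9 genes in EDL and last in soleus. Prox1 rested on few reads in EDL, where its level was at the 2.63 percentile of all genes.

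**Figure D5:**
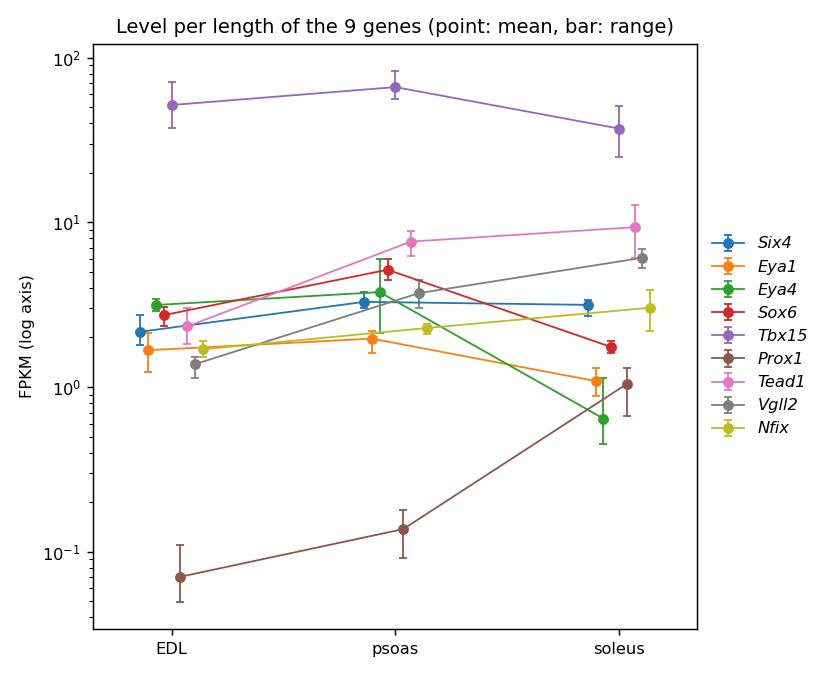
FPKM on a log axis for the 9 genes in each muscle, with points at the mean and bars from the lowest to the highest library. Lines join the means of 1 gene across muscles and imply no order between them. Tbx15 stays on top (37.1 to 66.3), Eya4 drops to the lowest point in soleus (0.644), and Prox1 climbs from 0.0702 in EDL to 1.04 in soleus.

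The relatives of the members, 23 genes of the same families together with the Dach genes, Yap1, Wwtr1, and other T-box and Prox genes, were tested in the same fit. In soleus vs EDL, 1 of 23 rose, beside 3.59% of all genes, and 1 fell, beside 2.18%. In soleus vs psoas 1 fell, beside 2.71% of all genes. In psoas vs EDL, edgeR and limma-voom called 0 of 23, beside 2.11% of all genes in edgeR. There, 8 were at an unadjusted p under 0.05 in edgeR, and DESeq2 called 3 (Dach2, Nfic, and Tead4). Dach2, a partner of sine oculis and EYA proteins, rose in soleus vs EDL (log2 4.09, SE 0.65, edgeR adjusted p = 0.00188), with 0.654 to 1.51 normalized CPM in EDL, 2.97 to 12.6 in psoas, and 9.81 to 37.8 in soleus. Six2 fell in soleus against both muscles in edgeR and DESeq2, while limma-voom called 0 of 23 relatives against psoas, with 8 at an unadjusted p under 0.05. Six2 had 20, 59, and 16 counts in EDL 1 to 3, 12, 6, and 7 in psoas 1 to 3, and 0, 1, 0, and 0 in soleus 1 to 4, so that no fold is given. Tead4 was at most at 0.433 normalized CPM in EDL and at least at 0.718 in the other muscles. It did not pass the thresholds in edgeR (edgeR adjusted p = 0.0454 in psoas vs EDL and 0.033 in soleus vs EDL), while DESeq2 called it in both comparisons.

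Genes of the fast and slow programs were counted in the same fit, from general lists of fiber genes and not as known targets of each factor. Of 16 fast fiber genes, 7 fell in soleus vs EDL, beside 2.18% of all genes, and 11 in soleus vs psoas, beside 2.71%. The largest falls were those of the fast myosin Myh4 (log2 −5.16 and −5.46) and the calcium buffer Pvalb (−4.80 and −4.89). Of 14 slow fiber genes, 13 rose in soleus vs EDL, beside 3.59% of all genes, and 12 in soleus vs psoas, beside 2.99%. They were led by Myl3 (8.20) and Myh7 (7.58) against EDL and by Myh7 (10.66) and Tnni1 (9.80) against psoas. In psoas vs EDL, where edgeR called 2.11% of all genes, it called 0 of 16 fast genes, with 3 at an unadjusted p under 0.05. DESeq2 and limma-voom called 0 as well. Of the slow genes, edgeR called 0 of 14, with 7 at an unadjusted p under 0.05, limma-voom called 1 (Tpm3), and DESeq2 called 4 (Myh7, Myh7b, Tnnt1, and Tpm3). The median log2 fold change in that comparison was 0.42 for the fast genes and −0.90 for the slow genes, beside 0.01 over all genes.

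Likeness of pattern was measured by Pearson's r of log2 normalized CPM over the 10 libraries, which differ in depth and muscle. The search covered 11227 genes with a symbol and a mean of at least 1 CPM. Symbols of Gm followed by a number and those ending in Rik were left out. Among the members, Tead1 and Vgll2 (r = 0.932), Eya1 and Tbx15 (0.932), Tead1 and Nfix (0.905), and Tead1 and Six4 (0.902) were most alike, and Eya4 and Prox1 were most opposed (−0.896). Of the other genes searched, Sox6 was closest to Pkm (0.989) and Pds5b (0.982), and Eya4 to Slc16a3 (0.982) and Ccdc186 (0.969). Vgll2 was closest to Hspb6 (0.993) and Hspa4 (0.982), Tead1 to Ppp1r37 (0.982), and Prox1 to Ralgps1 (0.978) and Chmp4c (0.976). For Six4 these were Vps52 (0.975) and Zbtb44 (0.974), for Eya1 Ryk (0.966) and Bsg (0.963), for Nfix Amotl1 (0.959) and Akt1 (0.957), and for Tbx15 Sc5d (0.943) and Hrc (0.940). Pkm encodes a glycolytic pyruvate kinase and Slc16a3 a lactate transporter, and Hspb6 and Hspa4 encode heat shock proteins. With 10 libraries in 3 groups, such values describe the order of the muscles and of the libraries within them.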

How the data were processed

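Strand-specific total RNA libraries (Illumina TruSeq Stranded Total RNA) were sequenced from 10 muscle samples. Per the labels and the study's methods, the authors trimmed 4 libraries with Trimmomatic 0.32, aligned reads with TopHat2 2.1.1, counted reads per gene, and deposited raw counts without normalization. All 16112 genes met their filter of 10 reads in 3 or more samples. The strand setting of the counting and its handling of reads with several alignments are not given in the sources used here. Exons of Prox1 share 133 bases and those of Nfix 137 and 4 bases with genes on the opposite strand. These genes stood between 0 and 1.24 CPM where they were counted.

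Counts were fitted with edgeR 4.0.16 (R 4.3.3) by the quasi-likelihood test, with TMM normalization, all 10 libraries in 1 fit, no covariate, and Benjamini-Hochberg adjustment. Normalized CPM are counts scaled to TMM library sizes, and a library's depth (12737971 to 50431713 counts) limits precision, most for Prox1. FPKM were computed with DESeq2 1.42.0 size factors and summed exon lengths of GENCODE M21, and shares and ratios from counts per kilobase. The fit was tested on simulated data. Muscles were taken from the sample labels. Alternatives were DESeq2, limma-voom (limma 3.58.1), other normalizations, filters and thresholds, covariates for trimming, for a run proxy of 3 levels (trimmed libraries, those of 44-day mice without trimming, and the rest), for sex, and for replicate number, the animal as a random effect, and fits without each library. Promoters and microRNAs came from RefSeq (GRCm38.p6). The members, lists, and tests were chosen with earlier results of these data known. The text names all members, the relatives called or highest in a family, the 2 most changed genes of each fiber list, and the 2 genes most like each member. A gene that this rule also names, and the shares of its family, are not reported here. Yap1, Wwtr1, Eya3, Vgll4, Tead4, Myh7b, and the markers of lymphatic vessels, satellite cells, adipocytes, and macrophages were added after their values were seen. The comparisons share libraries.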

Additional observations from a re-analysis of the deposited data

Results flagged for a closer look

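In soleus, where 4 libraries allow a test for a library far from the others (Dixon's ratio against its 95% limit), 2 of 18 values were far out, and both were of Eya4. Its level in soleus 1 was 10.9 normalized CPM, against 4.38 to 4.70 in the other soleus libraries. Its share of the EYA family in soleus 1 was 35.5%, against 16.9% to 18.5%. Both values come from the same counts of Eya4 and count as 1 pattern, and chance flags about 1 in 20 groups. Soleus 1 remained below every EDL and psoas library in both measures. Without soleus 1, Eya4 was still called in soleus vs EDL and in soleus vs psoas. Groups of 3 libraries were not tested in this way.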

How the results depend on the processing

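The number of members called in psoas vs EDL (2) was 0 with the compared muscles alone, 0 with the replicate block, and 0 to 2 without each library in turn. With the replicate block soleus had 4 called members against EDL and 3 against psoas, the counts found without it, and 4 against the mean of both, where it had 5. Pairing was read from deviations, the log2 CPM of each gene less the mean of its muscle, and not from the levels themselves. Deviations of EDL and psoas libraries with the same replicate number correlated at 0.255, 0.0629, and 0.552, and these are not taken as pairs. For libraries that share an animal code (EDL 3 with soleus 2, psoas 1 with soleus 1, and psoas 3 with soleus 4), deviations correlated at 0.253, 0.409, and 0.496. The main model leaves this out, and limma-voom with the animal code as a random effect called 2, 4, 3, and 5 members in psoas vs EDL, in soleus against EDL, psoas, and their mean, the same counts as the main model. At an adjusted p under 0.05 with no fold threshold, 5 members passed in soleus vs psoas, and with the run proxy 1 was called against the mean of EDL and psoas. The share of all genes called in these other fits is not given here, and the cause of these differences was not tested. In members that were not called, the log2 fold change turned to −0.29 for Eya4 in psoas vs EDL without psoas 1 (range −0.29 to 0.52 without each library), to 0.092 and 0.02 for Six4 in soleus vs psoas without psoas 3 and without soleus 3 (range −0.12 to 0.092), and to −0.0168 for Six4 against the mean of EDL and psoas with trimming as a covariate. Without division by exon length, shares in the family in EDL, psoas, and soleus were 95.4%, 98.3%, and 95.7% for Sox6, 95.9%, 98.1%, and 98.3% for Tead1, 17.6%, 13.4%, and 20.5% for Nfix, and 28.3%, 53.6%, and 70.3% for Vgll2, and 62.5% for Eya4 in EDL, by construction. EDL and psoas had 1 untrimmed library each. Per kilobase in these single libraries, shares were 32.6% for Eya1, 95.5% for Sox6, and 92.9% for Tead1 in EDL 3, and 78.4% for Vgll2 in psoas 3. Depth limits Prox1 most, with 8 counts in EDL 3.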
